A study of Mus musculus with 308 samples.

Results

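Mast cell and basophil genes were followed through the 7 tissues of mice dosed with fumaric acid esters. The set holds 10 genes (Fcer1a, Ms4a2, Cpa3, Cma1, Mcpt1, Mcpt2, Mcpt4, Tpsb2, Hdc and Kit) of 17097 measured genes, taken as the 13 probe sets whose only gene symbol was one of these names. Gene expression was measured on 308 Affymetrix mouse HT MG-430 PM arrays, 1 array per mouse and tissue, covering 3 lymphoid organs (spleen, mesenteric and inguinal lymph node), whole blood, kidney, jejunum and brain of C57BL/6 mice. Dosing was once a day over 10 days, with tissues collected 12 h following the final dose. The vehicle group received 0.8% HPMC (hydroxypropyl methylcellulose). DMF100 and DMF179.2 received dimethyl fumarate, the dimethyl ester of fumaric acid, at 100 and 179.2 mg/kg. MEF79.2 received monoethyl fumarate as its salts with zinc, magnesium and calcium at 79.2 mg/kg, and the combination received both DMF at 100 mg/kg and these MEF salts at 79.2 mg/kg. A group labelled Nav is not explained in the sources used here. Each group held between 5 and 8 arrays per tissue, and every comparison with vehicle in a tissue shares the same vehicle arrays.

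Mast cells live in connective tissue and mucosa, while basophils circulate in blood. Both bind IgE through a high-affinity receptor whose alpha chain is Fcer1a and whose beta chain is Ms4a2, and both release histamine when that receptor is crosslinked by antigen. Mast cell granules store carboxypeptidase A3 (Cpa3), chymases (Cma1, Mcpt1, Mcpt2, Mcpt4) and tryptase (Tpsb2). Mcpt4 and Cma1 mark connective tissue mast cells, and Mcpt1 and Mcpt2 mark mucosal mast cells of the gut. Hdc, histidine decarboxylase, makes histamine, and Kit is the stem cell factor receptor on which mast cells depend. Hdc and Kit are also active outside these cells, Hdc in other blood cells, hypothalamic neurons and kidney tubules, and Kit in blood progenitors, neurons and the interstitial cells of Cajal that pace the gut wall.

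Factors of the GATA family, with Gata2 the best known in mast cells and basophils, bind sites with the letters AGATAA or AGATAG, in which the first letter may also be T (giving TGATAA and the like). These 4 forms were searched on both strands in the 250 bases upstream of the annotated start of each gene (RefSeq, GRCm38.p6). Upstream sequence was found for 8 of the 10 genes, and 7 of the 8 held at least 1 match, against 26.5% of all 32851 promoters. Kit held none. The 6 sequences shown belong to genes that carry the results in blood and inguinal node, with Mcpt1 beside Mcpt4. Capitals mark the GATA letters, on whichever strand they were found:

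Fcer1a: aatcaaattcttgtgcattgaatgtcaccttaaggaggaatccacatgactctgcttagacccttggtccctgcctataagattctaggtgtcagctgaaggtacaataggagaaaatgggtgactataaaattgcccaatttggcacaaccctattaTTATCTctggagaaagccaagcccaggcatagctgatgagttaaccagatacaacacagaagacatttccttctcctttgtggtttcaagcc
Ms4a2: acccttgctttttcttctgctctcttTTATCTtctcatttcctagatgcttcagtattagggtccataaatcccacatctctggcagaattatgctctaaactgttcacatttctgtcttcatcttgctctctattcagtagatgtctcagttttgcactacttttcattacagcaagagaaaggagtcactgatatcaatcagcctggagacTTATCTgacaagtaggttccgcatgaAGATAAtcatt
Cpa3: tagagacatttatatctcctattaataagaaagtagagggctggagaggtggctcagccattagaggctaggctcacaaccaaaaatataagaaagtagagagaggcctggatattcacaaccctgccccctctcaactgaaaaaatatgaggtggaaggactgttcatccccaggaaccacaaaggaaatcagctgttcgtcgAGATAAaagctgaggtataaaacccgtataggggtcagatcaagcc
Cma1: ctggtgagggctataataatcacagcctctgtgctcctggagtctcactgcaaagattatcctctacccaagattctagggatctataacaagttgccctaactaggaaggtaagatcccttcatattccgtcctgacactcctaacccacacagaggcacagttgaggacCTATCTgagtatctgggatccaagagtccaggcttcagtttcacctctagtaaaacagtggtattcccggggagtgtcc
Mcpt4: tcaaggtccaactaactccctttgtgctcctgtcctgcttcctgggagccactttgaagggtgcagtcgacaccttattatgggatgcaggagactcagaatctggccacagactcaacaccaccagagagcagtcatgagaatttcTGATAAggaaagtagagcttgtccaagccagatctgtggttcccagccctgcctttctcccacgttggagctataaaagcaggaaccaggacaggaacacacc
Mcpt1: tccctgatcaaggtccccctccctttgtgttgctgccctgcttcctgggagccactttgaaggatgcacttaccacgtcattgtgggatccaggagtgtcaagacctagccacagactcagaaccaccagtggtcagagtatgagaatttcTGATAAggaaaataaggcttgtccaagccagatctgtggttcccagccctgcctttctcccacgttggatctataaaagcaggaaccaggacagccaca

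They lie at chr1:173227230-173227479 (Fcer1a, minus strand), chr19:11623720-11623969 (Ms4a2, minus), chr3:20242182-20242431 (Cpa3, minus), chr14:55944676-55944925 (Cma1, minus), chr14:56062311-56062560 (Mcpt4, minus) and chr14:56017714-56017963 (Mcpt1, plus). Counted from the annotated start, the first base of the match lay at -92 in Fcer1a, -46 in Cpa3, -79 in Cma1, -103 in Mcpt4 and -99 in Mcpt1, and Ms4a2 held 3 matches. Fcer1a, Cpa3, Mcpt4 and Mcpt1 also held the letters TATAAA at -125, -31, -32 and -28, which 7.59% of all promoters hold somewhere in the window. The Mcpt1 and Mcpt4 sequences were identical at 213 of 260 aligned positions (81.9%), whereas the other pairs among Fcer1a, Cpa3, Cma1, Mcpt4 and Mcpt1 ranged from 47.3 to 54.1%. A match of letters is a description and not evidence of binding.

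Expression values are on the deposited log2 scale, on which 1 unit is a doubling. The tissues were normalized apart, so the level of a gene is set side by side between tissues only as its mean percentile rank among all probe sets of the vehicle arrays. Tests were limited to genes with 5 or more arrays above percentile 50 of all values in that tissue. This held for 20 of the 70 gene and tissue pairs, spread over 8 genes, and Mcpt1 and Mcpt2 passed in no tissue. In bulk tissue, fewer cells of a type and less RNA per cell cannot be told apart.

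The inguinal node was the tissue of the connective tissue mast cell genes. Cma1 ranked at percentile 74.1 there, Mcpt4 at 71.6, Tpsb2 at 71.1 and Cpa3 at 70.1. Mcpt4 lay at or near the lowest value of the tissue in the other 6, and Tpsb2 stayed between percentiles 36.3 and 44.5 in them. Blood was the one other tissue where Cpa3 and Cma1 passed the filter, at percentiles 59.0 and 65.4.

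The receptor chains divided differently. Ms4a2 ranked at percentile 68.3 in blood and passed the filter in no other tissue. Fcer1a ranked at percentile 55.4 in blood and at 39.03 in vehicle inguinal node. In the inguinal node Fcer1a passed the filter through 12 of 44 arrays, none of them vehicle or MEF79.2 arrays, so there it was tested only because of the groups in which it is high. Ms4a2 lay between 3.02 and 3.15 in all 44 inguinal node arrays.

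Mcpt1 and Mcpt2, the mucosal chymases, were at the lowest value in all inguinal node, kidney and brain arrays and rose above it chiefly in jejunum. Kit ranked between percentiles 65.0 and 74.3 in the 6 solid tissues, highest in brain, and at 16.4 in blood. Hdc ranked at percentile 87.5 in blood, 70.8 in kidney, 61.6 in spleen, 52.3 in brain and 51.0 in inguinal node. In jejunum and mesenteric node Hdc did not pass the filter. The protease genes of the set belong to families of related proteases whose probes can share sequence, and the arrays give no way to separate such a contribution.

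**Figure D1:**
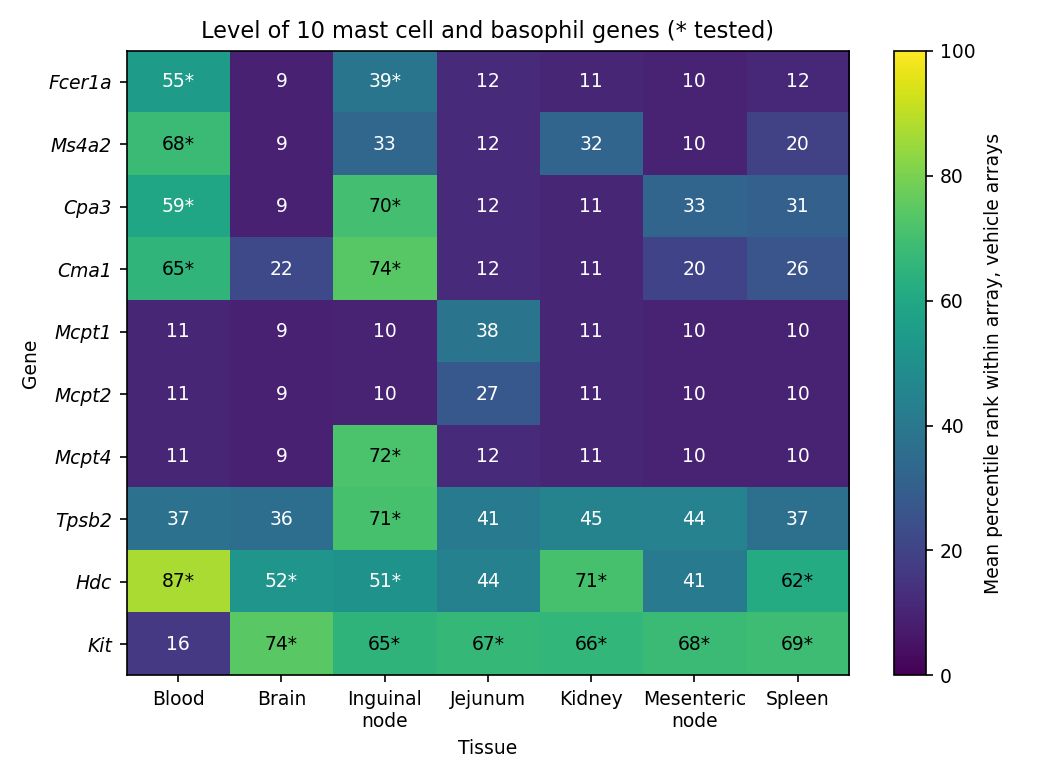
Mean percentile rank of each of the 10 genes (rows) among all probe sets within the vehicle arrays of each tissue (columns), with a star where the gene was tested. Read along a row: Mcpt4 stands at 71.6 in inguinal node and between 9.28 and 11.7 elsewhere, Ms4a2 at 68.3 in blood, and Kit at 16.4 in blood against 65.0 or more in the other tissues.

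The arrays of a tissue correlated closely, with the mean r of an array to the others falling lowest at 0.982 in blood, for Nav array 40. Arrays carry the number of the mouse, and each number occurs once per tissue, so groups within a tissue share no mouse. Nothing in the labels gives the sex, age or housing of these mice, and the number of arrays limits the precision.

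Of the 20 tested pairs, 4 changed at a Benjamini-Hochberg adjusted p under 0.05 (limma, adjusted over all genes tested in the tissue) in DMF100, 5 in DMF179.2, 1 in MEF79.2, 2 in the combination and 0 in Nav. In DMF100 these were Fcer1a and Ms4a2 in blood, Fcer1a in inguinal node and Hdc in kidney, and DMF179.2 added Kit in jejunum. MEF79.2 changed Hdc in kidney alone, and the combination changed Hdc in kidney and Fcer1a in inguinal node. The share of all genes called against vehicle ran from 0% for the combination in blood to 50.6% for Nav in mesenteric node. Shares are given with each tissue below. The counts include Fcer1a in inguinal node, which passed the filter only through the groups where it is high. Under a fit without the filter on low values, 3 pairs were called in Nav. Direct comparisons called 4 pairs between MEF79.2 and DMF100, all in inguinal node, and 0 between DMF179.2 and DMF100, between the combination and DMF100, or between DMF179.2 and the combination. At an unadjusted p under 0.05 the counts were 3 for Nav and 1, 0 and 3 for these last 3 comparisons.

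**Figure D2:**
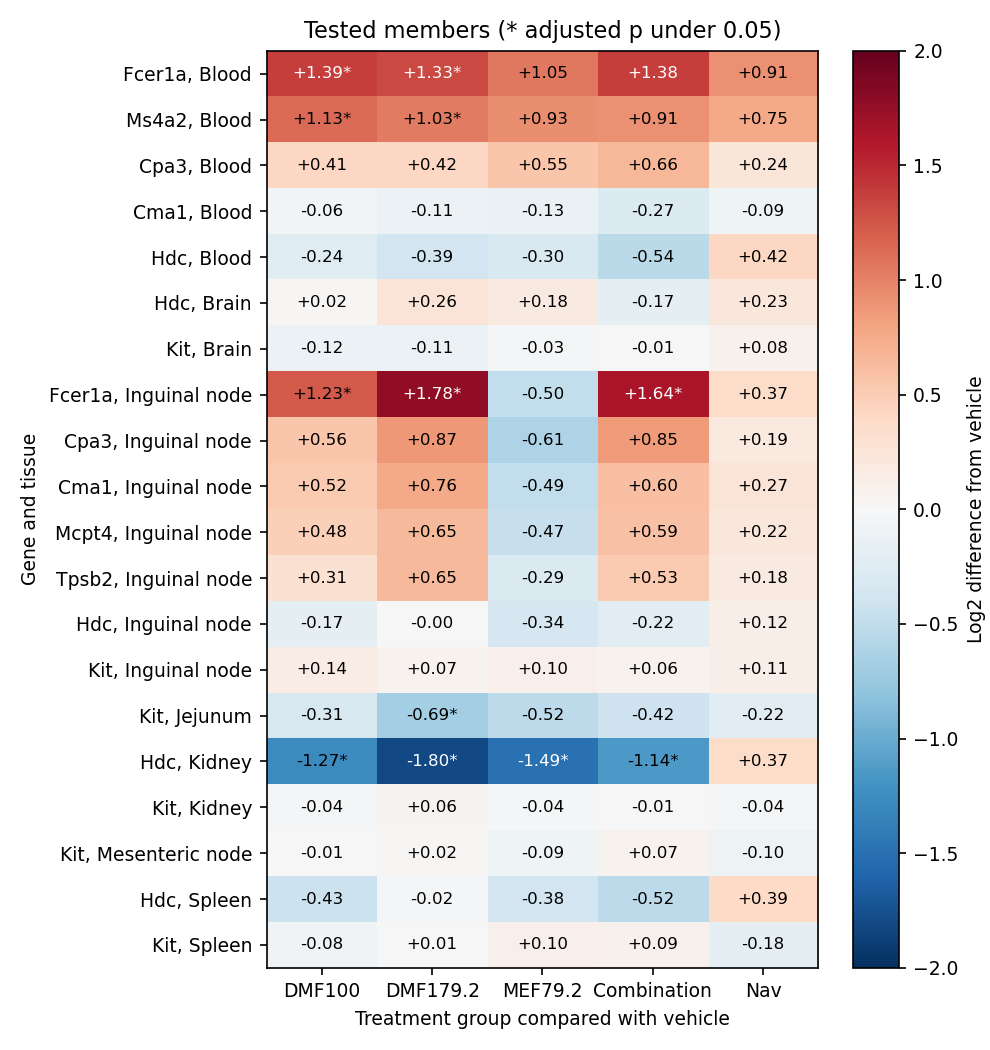
Log2 difference from vehicle (colour and printed value) for the 20 tested gene and tissue pairs (rows) in the 5 other groups (columns), with a star at an adjusted p under 0.05. Positive values gather in the Fcer1a, Ms4a2 and Cpa3 rows of blood and the protease rows of inguinal node outside MEF79.2, and the largest negative values stand in kidney Hdc.

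Fcer1a was higher than vehicle in inguinal node after both doses of DMF and after the combination, and the granule protease genes lay on the same side without passing the test. MEF79.2 lay on the other side of vehicle for all 5 of these genes. In vehicle Fcer1a ranged from 2.79 through a median of 3.99 to 4.84 (n = 8). It ranged from 4.60 through 5.08 to 5.68 in DMF100 (n = 8), from 4.34 through 5.83 to 6.66 in DMF179.2 (n = 6) and from 4.82 through 5.52 to 6.32 in the combination (n = 8). In MEF79.2 it ranged from 2.41 through 3.43 to 4.31 (n = 6), and in Nav from 2.86 through 4.49 to 5.45 (n = 8). The highest vehicle array was exceeded by 6 of 8 DMF100, 5 of 6 DMF179.2 and 7 of 8 combination arrays, by 3 of 8 Nav arrays and by no MEF79.2 array. Fcer1a therefore rose by 1.23 ± 0.34 (SE) in DMF100 (2.35-fold, adjusted p = 0.0461), by 1.78 ± 0.36 in DMF179.2 (3.43-fold, adjusted p = 0.0117) and by 1.64 ± 0.34 in the combination (3.11-fold, adjusted p = 0.0361). The differences were -0.50 ± 0.36 in MEF79.2 (adjusted p = 0.604) and 0.37 ± 0.34 in Nav (adjusted p = 0.752). The share of all genes called was 1.69% in DMF100, 0.379% in DMF179.2, 0.0474% in the combination, 0.00947% in MEF79.2 and 0.0189% in Nav. Of the 7 tested genes 1 was called in each of the first 3, and since Fcer1a passed the filter only through the groups where it is high, these counts are not read as support.

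The Fcer1a calls in inguinal node were near the threshold. Without the filter on low values, which Fcer1a passed only through its high groups, the calls in DMF100 and the combination were lost (adjusted p = 0.0784 and 0.0578). With the mouse as a block over the tissues where Fcer1a was tested, the DMF100 call was lost too (adjusted p = 0.122). Leaving out DMF179.2 array 19 or 20 took the adjusted p of DMF179.2 to 0.0617 and 0.0631. For the combination, 9 of 16 arrays left out singly ended the call, with an adjusted p of up to 0.121: combination arrays 33, 35, 36 and 39 and vehicle arrays 2, 5, 6, 7 and 8. For DMF100, 12 of 16 did so, up to 0.0986: DMF100 arrays 9 to 15 and vehicle arrays 2, 5, 6, 7 and 8. The bacterial transcripts added before hybridisation as a signal check were lower than vehicle by 0.09 in DMF100, 0.14 in DMF179.2 and 0.14 in the combination (adjusted p = 0.0431, 0.00333 and 0.00490, exact permutation tests over arrays), and by 0.06 in MEF79.2 (adjusted p = 0.426). They were also lower by 0.13 in Nav (adjusted p = 0.00408), where Fcer1a was not called. With this control as a covariate the 3 differences were 1.20, 1.73 and 1.59 (adjusted p = 0.0639, 0.0561 and 0.191).

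Cpa3, the granule carboxypeptidase, had vehicle values from 7.34 through 7.80 to 8.11. All 8 combination arrays, from 8.19 through 8.62 to 9.14, lay above the highest vehicle array, as did 6 of 8 DMF100 and 5 of 6 DMF179.2 arrays. Its differences from vehicle were 0.56 ± 0.21 in DMF100, 0.87 ± 0.22 in DMF179.2, 0.85 ± 0.21 in the combination and -0.61 ± 0.22 in MEF79.2 (adjusted p = 0.167, 0.0628, 0.101 and 0.298). Cma1, a chymase, ranged from 7.81 through 8.27 to 8.54 in vehicle and from 8.25 through 8.95 to 9.49 in DMF179.2. It differed from vehicle by 0.52 ± 0.19, 0.76 ± 0.20, 0.60 ± 0.19 and -0.49 ± 0.20 in the same order of groups (adjusted p = 0.141, 0.0691, 0.248 and 0.348). Without DMF179.2 array 17, the lowest of its group for Fcer1a and all 4 proteases, the DMF179.2 differences were 1.05 for Cpa3 and 0.91 for Cma1 (adjusted p = 0.0181 and 0.0277). With any 1 of the other 13 arrays left out, neither gene was called in DMF179.2 (adjusted p of up to 0.227 for Cpa3 and 0.236 for Cma1).

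Mcpt4, the connective tissue chymase, ranged from 7.43 through 7.97 to 8.42 in vehicle and differed by 0.48 ± 0.22 in DMF100, 0.65 ± 0.23 in DMF179.2, 0.59 ± 0.22 in the combination and -0.47 ± 0.23 in MEF79.2. Tpsb2, a tryptase, ranged from 7.43 through 7.95 to 8.13 and differed by 0.31 ± 0.19, 0.65 ± 0.21, 0.53 ± 0.19 and -0.29 ± 0.21. Adjusted p-values of these 8 differences ran from 0.154 to 0.602. A second Tpsb2 probe set lay between 3.84 and 4.40 in all 44 inguinal node arrays and was not the one tested. In Nav the 4 protease genes differed from vehicle by 0.18 to 0.27, none called.

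Hdc and Kit were not called in inguinal node. Hdc, from 5.15 through 5.52 to 6.20 in vehicle, differed by -0.17 ± 0.14, -0.003 ± 0.16, -0.34 ± 0.16 and -0.22 ± 0.14 in the order DMF100, DMF179.2, MEF79.2, combination, none called. Kit, from 6.96 through 7.18 to 7.54, differed by 0.06 to 0.14, none called. The 95% interval of the Kit difference in DMF179.2 ran from -0.11 to 0.25.

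**Figure D3:**
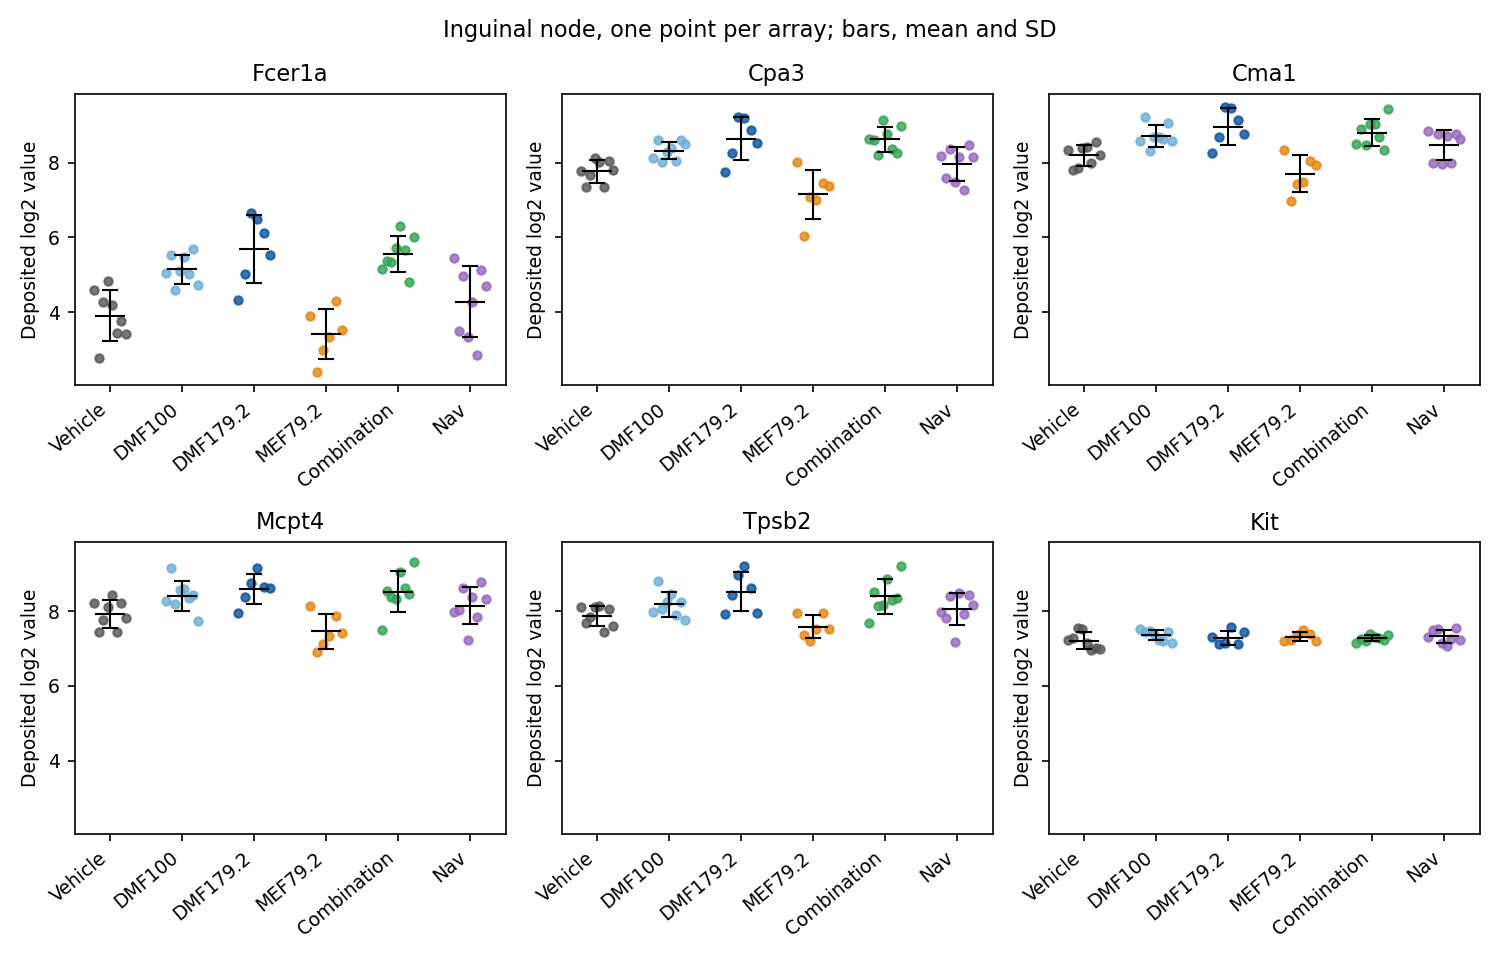
Log2 value of 6 genes in each inguinal node array (points) by group, with the group mean and SD as bars. Fcer1a reaches 6.66 in DMF179.2 and does not exceed 4.84 in vehicle or 4.31 in MEF79.2, and the lowest points of Cpa3 (6.05), Cma1 (6.99) and Mcpt4 (6.90) are MEF79.2 arrays, while Kit stays between 6.96 and 7.58.

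Set against DMF100 in inguinal node, MEF79.2 had lower Fcer1a, Cpa3, Cma1 and Mcpt4. The 2 groups differ in both compound and dose, so the difference belongs to the groups and not to either alone. Cpa3 was lower in MEF79.2 by 1.17 ± 0.22 (2.25-fold, adjusted p = 0.00817), with MEF79.2 values from 6.05 to 8.003 and DMF100 values from 8.03 to 8.61, which did not overlap. Cma1 was lower by 1.01 ± 0.20 (2.02-fold, adjusted p = 0.00817), Fcer1a by 1.73 ± 0.36 (3.33-fold, adjusted p = 0.0131) and Mcpt4 by 0.95 ± 0.23 (1.93-fold, adjusted p = 0.0453). Fcer1a values did not overlap either, at most 4.31 against at least 4.60, whereas those of Cma1 overlapped between 8.30 and 8.34. Tpsb2 differed by -0.59 ± 0.21 (adjusted p = 0.152), Hdc by -0.16 and Kit by -0.04, none called. Of the 7 tested genes 4 were called, against 0.521% of all genes. Fcer1a is among the 4, and as it passed the filter through the groups where it is high, the count is not read as support. Leaving out any 1 array kept the Cpa3 and Cma1 calls. MEF79.2 array 26 or 27 left out took Fcer1a to an adjusted p of 0.0682 and 0.0611. The Mcpt4 call was lost without any 1 of 10 of the 14 arrays (adjusted p of up to 0.147), namely DMF100 arrays 9, 10, 12, 13, 14 and 15 and MEF79.2 arrays 26, 27, 28 and 30, and also with the hybridisation control as a covariate (0.0727).

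Between the doses of DMF and the combination no gene of the set was called in inguinal node. Fcer1a differed by 0.54 between DMF179.2 and DMF100 (95% interval -0.19 to 1.28), by 0.40 between the combination and DMF100 (-0.28 to 1.08) and by 0.14 between DMF179.2 and the combination (-0.59 to 0.87). The intervals admit differences larger than 1 log2 unit in the first 2 comparisons. The shares of all genes called were 0.00947%, 0.18% and 0%.

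The receptor chain and protease genes of the inguinal node varied together from array to array. With each group centred on its mean, Pearson r over 44 arrays was 0.92 for Cpa3 and Cma1, 0.91 for Mcpt4 and Tpsb2, 0.84 for Fcer1a and Cma1 and 0.82 for Fcer1a and Cpa3. The other pairs of these 5 genes lay between 0.64 and 0.79. With Kit these 5 genes had r between 0.08 and 0.31. The arrays share a normalization, so these values are descriptive. Genes outside the set that lay nearest to the mean of the 5 were Gata2 (r = 0.71), a transcription factor of mast cells and their progenitors, then Sostdc1 (0.65), Arfgef2 (0.64), 1300017J02Rik (0.62) and Myzap (0.61). Gata2 itself differed by -0.27 ± 0.12 between MEF79.2 and DMF100 (adjusted p = 0.254).

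Markers of other cells in the node were set beside the 5 genes. An inguinal node lies in fat, and the adipocyte genes tested (Adipoq, Fabp4 and Lep, 3 of 6 listed) had array means from 8.2 to 10.8 in vehicle, 7.7 to 10.4 in DMF179.2 and 8.4 to 11.7 in MEF79.2, with r = -0.13 to the mean of the 5 genes. The 4 tested fibroblast genes of 5 had means of 8.7 to 9.1 in vehicle, 8.8 to 9.0 in DMF179.2 and 8.6 to 9.2 in MEF79.2 (r = 0.006). The 4 macrophage genes had means of 8.6 to 8.9, 8.8 to 9.0 and 8.4 to 8.8 (r = 0.32), and the 4 T cell genes 11.4 to 11.5, 11.4 to 11.6 and 11.4 to 11.6 (r = -0.24). The part of these cells in the result was not tested further.

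In whole blood both IgE receptor chains were higher than vehicle in both DMF groups. The 3 other groups also lay above vehicle without passing the test. Fcer1a in the 7 vehicle arrays ranged from 2.79 through a median of 4.33 to 4.91, against 4.75 through 5.42 to 6.13 in DMF100 (n = 7) and 4.33 through 5.33 to 6.11 in DMF179.2 (n = 8). The combination ranged from 4.91 through 5.41 to 6.17 (n = 6), with all 6 arrays above the highest vehicle array. The 5 MEF79.2 arrays had 4.74, 4.94, 5.22, 5.23 and 5.38, and the 5 Nav arrays 4.70, 4.88, 4.90, 5.12 and 5.19. Vehicle arrays 1 and 3, at 2.79 and 2.97, stood well below the other 5, which lay between 4.02 and 4.91. Fcer1a rose by 1.39 ± 0.29 in DMF100 (2.62-fold, adjusted p = 0.0257) and by 1.33 ± 0.28 in DMF179.2 (2.51-fold, adjusted p = 0.0156). The differences of 1.38 ± 0.30 in the combination, 1.05 ± 0.32 in MEF79.2 and 0.91 ± 0.32 in Nav had adjusted p-values of 0.145, 0.218 and 0.224.

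Ms4a2 followed Fcer1a in blood. Its vehicle values ran from 4.45 through 5.88 to 6.397, with vehicle arrays 1 and 3 again lowest at 4.56 and 4.45. In DMF100 it ran from 6.07 through 6.50 to 7.41 and in DMF179.2 from 6.00 through 6.64 to 7.23, and 6 of 7 and 5 of 8 arrays exceeded the highest vehicle array. Ms4a2 rose by 1.13 ± 0.26 in DMF100 (2.19-fold, adjusted p = 0.0434) and by 1.03 ± 0.25 in DMF179.2 (2.05-fold, adjusted p = 0.0283). The differences were 0.93 ± 0.28 in MEF79.2, 0.91 ± 0.27 in the combination and 0.75 ± 0.28 in Nav (adjusted p = 0.218, 0.413 and 0.245). No comparison between the dosed groups was called, and the DMF179.2 minus DMF100 difference was -0.10 (95% interval -0.60 to 0.41). Over 38 arrays, groups centred, Fcer1a and Ms4a2 had r = 0.72. A second Ms4a2 probe set, which was not the one tested, lay between 2.27 and 4.04 in blood. It carried the same value of 2.42 in 25 of 38 arrays, and 1 array lay above the tissue's 50th percentile.

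Of the 5 tested genes in blood 2 were called in DMF100 and 2 in DMF179.2, where 0.26% and 1.34% of all genes were called. None was called in the combination (0% of genes), MEF79.2 (0%) or Nav (0.0193%). The DMF179.2 call of Fcer1a held with any 1 array left out. The DMF100 call was lost without DMF100 array 14, 15 or 16 or vehicle array 3 or 6, with an adjusted p of up to 0.0696 and a difference of 1.21 without vehicle array 3. For Ms4a2 the DMF179.2 call was lost without DMF179.2 array 24 or vehicle array 1 or 3 (adjusted p = 0.0526, 0.0711 and 0.0828). Its DMF100 call was lost without any 1 of 9 of the 14 arrays (up to 0.118): DMF100 arrays 10, 11, 14, 15 and 16 and vehicle arrays 1, 2, 3 and 6. With each DMF group fitted against vehicle alone, all 4 calls were lost (adjusted p = 0.0986 in DMF100 and 0.0943 in DMF179.2 for Fcer1a, 0.162 and 0.0991 for Ms4a2). Without the filter on low values, Fcer1a in DMF179.2 alone kept its call (adjusted p = 0.0297).

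Cpa3 in blood ran from 3.90 through 4.29 to 4.89 in vehicle and differed by 0.41 ± 0.17 in DMF100, 0.42 ± 0.17 in DMF179.2, 0.55 ± 0.19 in MEF79.2, 0.66 ± 0.18 in the combination and 0.24 ± 0.19 in Nav, none called. Every array of those 5 groups lay above the vehicle median. The hybridisation controls did not separate any blood group from vehicle (adjusted p from 0.0976 to 0.715, exact permutation tests). Cma1, from 4.71 to 5.67 in vehicle, differed by -0.06 to -0.27, none called. Hdc in blood, from 7.60 through 8.16 to 8.65 in vehicle, differed by -0.24, -0.39, -0.30 and -0.54 after low DMF, high DMF, MEF salts and the combination, none called. Mcpt1, Mcpt2, Mcpt4 and Kit lay at or near the lowest value of 2.27, and Tpsb2 between 2.49 and 2.91.

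**Figure D4:**
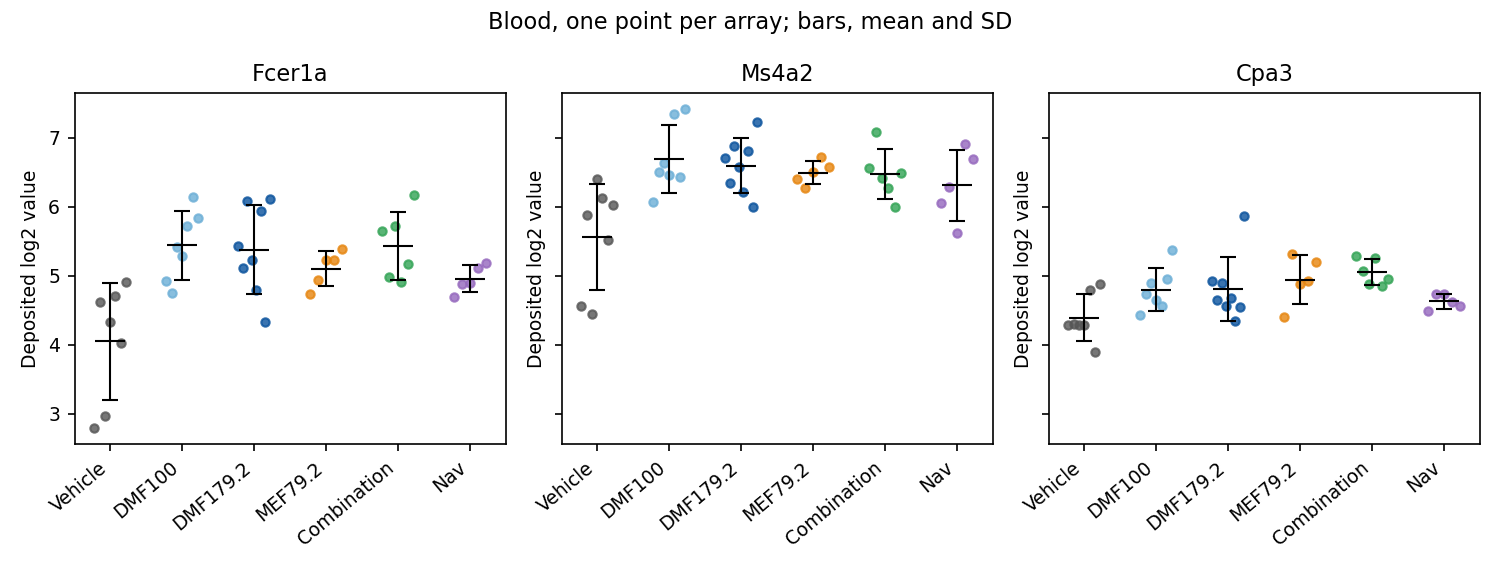
Log2 value of Fcer1a, Ms4a2 and Cpa3 in each blood array (points) by group, with the group mean and SD as bars. Vehicle arrays spread from 2.79 to 4.91 for Fcer1a and from 4.45 to 6.397 for Ms4a2, with 2 arrays at the foot of each, while every other group lies between 4.33 and 6.17 for Fcer1a.

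Other genes of basophils and mast cells were compared in blood. Of the 22 listed, 16 were measured and 8 tested, and none was called in any group. Mcpt8, a granule protease of basophils, differed from vehicle by 0.90 ± 0.36 in DMF100 and 0.67 ± 0.35 in DMF179.2 (adjusted p = 0.340 and 0.349). Cd200r3, an activating receptor of both cells, differed by 0.64 ± 0.24 and 0.59 ± 0.23 (adjusted p = 0.301 and 0.196), and Il4, their cytokine, by 0.43 ± 0.21 and 0.38 ± 0.20 (0.497 and 0.369). These named genes were picked from the 8 tested and not by a call, and the others are not given singly, so they do not stand for the list. The median of Other mast cell and basophil genes in DMF100 was 0.33, against 0.00 over all genes tested in blood. Neutrophil markers (S100a8, S100a9, Camp and Ngp) had array means of 8.1 to 9.3 in vehicle and 8.4 to 11.2 in DMF179.2, with r = 0.10 to the mean of Fcer1a, Ms4a2 and Cpa3. The genes nearest to the mean of Fcer1a, Ms4a2, Cpa3 and Cma1 in blood were Cdh1 (r = 0.69), Scrn1 (0.59), Csrp3 (0.57), Havcr2 (0.56) and Ly6i (0.56). Within these 4 genes, Cpa3 had r = 0.41 to Fcer1a and 0.36 to Ms4a2. Cma1 had r = 0.18 to Fcer1a, 0.06 to Ms4a2 and -0.29 to Cpa3.

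No relation between blood and inguinal node of the same mouse was detected. Over 36 mice with both arrays, groups centred, r was -0.10 for Fcer1a, -0.09 for Cpa3 and -0.05 for Cma1 (within-group permutation test, 10000 draws, 2-sided p = 0.621, 0.681 and 0.788; 0.788 for all 3 after adjustment over 3 relations). Spearman's rho was -0.04, -0.01 and -0.04 (p = 0.839, 0.937 and 0.804). Without the 2 mice farthest from the median r was -0.01, -0.08 and -0.12. In the tissue by treatment interaction, no response of these 3 genes differed between blood and inguinal node after adjustment over 9534 genes. The smallest adjusted p was 0.153, for Cpa3 in MEF79.2, which lay above vehicle in blood and below it in inguinal node. With the mouse as a block, the smallest was 0.0822, for the same gene and group.

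Hdc fell in kidney in all 4 fumarate groups and was not called in Nav. In vehicle it ranged from 6.95 through a median of 7.44 to 8.61 (n = 7). It ranged from 5.68 through 6.07 to 7.11 in DMF100 (n = 8), from 4.80 through 5.84 to 6.57 in DMF179.2 (n = 8), from 5.39 through 5.95 to 7.10 in MEF79.2 (n = 7) and from 4.92 through 6.52 to 7.47 in the combination (n = 8). All 8 DMF179.2 arrays, 6 of 8 DMF100, 6 of 7 MEF79.2 and 7 of 8 combination arrays lay below the lowest vehicle array. The fitted differences correspond to 2.40-fold, 3.48-fold, 2.81-fold and 2.21-fold lower values in DMF100, in DMF179.2, in MEF79.2 and in the combination (adjusted p = 0.00806, 6.78e-05, 0.00203 and 0.00617). The difference in Nav was 0.37 ± 0.32 (adjusted p = 0.344). Of the 2 tested genes, Hdc and Kit, 1 was called in each fumarate group, where 8.09%, 16.7%, 14.2% and 30.3% of all genes were called, and none in Nav, with 49.8% of genes called. These calls held with any 1 array left out.

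Both Hdc probe sets gave the fall. The second one ranged from 6.48 to 7.93 in vehicle and fell by 0.97 in DMF100, 1.27 in DMF179.2, 0.99 in MEF79.2 and 0.83 in the combination. Both carry a suffix that Affymetrix gives to probes which may match several transcripts. No difference in Hdc between the 4 fumarate groups was called in the 4 comparisons made. DMF179.2 minus DMF100 was -0.53 (95% interval -1.15 to 0.09), DMF179.2 minus the combination -0.66 (-1.28 to -0.04, adjusted p = 0.147), the combination minus DMF100 0.12 (-0.50 to 0.75) and MEF79.2 minus DMF100 -0.22 (-0.87 to 0.42). The shares of all genes called in these comparisons were 1.36%, 11.4%, 14.6% and 2.4%. Without combination array 35, the lowest of its group, DMF179.2 minus the combination was -0.87 (adjusted p = 0.0372).

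Apart from Tpsb2, the mast cell protease genes lay at or near the lowest value in kidney. Fcer1a, Cpa3, Mcpt1, Mcpt2 and Mcpt4 were at the lowest value of 2.14 in 46 of 46 arrays and Cma1 in 42 of 46, while Tpsb2 lay between 4.23 and 4.49 and did not pass the filter. Kit differed from vehicle by -0.04 to 0.06, none called, and 25 of 46 kidney arrays carried the same Kit value of 6.96. The 10 tested proximal tubule genes of 12 had array means of 11.1 to 11.2 in vehicle and 10.999 to 11.3 across the fumarate groups, with r = 0.07 to Hdc. Single genes of this list were called in both directions. In DMF179.2 Aqp1 and Kap fell by 0.31 and 0.40, and Slc13a3 and Slc22a6 rose by 0.20 and 0.15. In the combination Slc5a12 and Aqp1 fell by 0.38 and 0.19, and Cyp2e1, Slc22a6, Slc13a3 and Slc5a2 rose by 0.57, 0.21, 0.15 and 0.14. Over 46 arrays, groups centred, the genes nearest to Hdc were Coprs (r = 0.75), Mpst (0.74), Sec14l3 (0.72), Ggt6 (0.71) and Acot7 (0.70). The genes most opposed to it were Mgst1 (-0.75), Akr1c13 (-0.72), Aldh5a1 (-0.67), Akr1c12 (-0.66) and Lats2 (-0.65), of which Mgst1 is a glutathione transferase and Akr1c12 and Akr1c13 are carbonyl reductases.

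Of the 5 tested genes that break down, carry or sense histamine in kidney, none was called in DMF100, DMF179.2 or MEF79.2, 1 in the combination and 3 in Nav. The shares of all kidney genes called were 8.09% in DMF100, 16.7% in DMF179.2, 14.2% in MEF79.2 and 30.3% in the combination. Hnmt, the methyltransferase that inactivates histamine, fell by 0.38 ± 0.14 in the combination (adjusted p = 0.0334) and by 0.48 in Nav (adjusted p = 0.00361). In Nav the monoamine oxidase Maob also fell by 0.58 and the transporter Slc22a2 rose by 0.14 (adjusted p = 0.0171 and 0.0278). The median difference of Histamine handling in DMF179.2 was -0.02, against 0.01 over all genes tested in kidney. Of the 6 tested IgE receptor signalling genes, Inpp5d, a phosphatase that restrains the pathway, fell in DMF100, DMF179.2 and the combination by 0.46, 0.40 and 0.32 (adjusted p = 0.0120, 0.0180 and 0.0420), and the kinase Fyn and the adaptor Gab2 fell and Grb2 rose in the combination and in Nav. These differences in Nav were -0.30, -0.45 and 0.30, and Grb2 also rose by 0.14 in MEF79.2. Ltc4s, leukotriene C4 synthase, rose by 0.58 ± 0.12 in DMF179.2, 0.33 ± 0.12 in the combination and 0.52 ± 0.12 in Nav. Il33, an alarmin, fell by 0.45 in MEF79.2, 0.40 in the combination and 0.51 in Nav (adjusted p = 0.0329, 0.0280 and 0.00287). Hdc differed from vehicle by 0.37 ± 0.32 in Nav (adjusted p = 0.344), where 49.8% of all kidney genes were called.

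**Figure D5:**
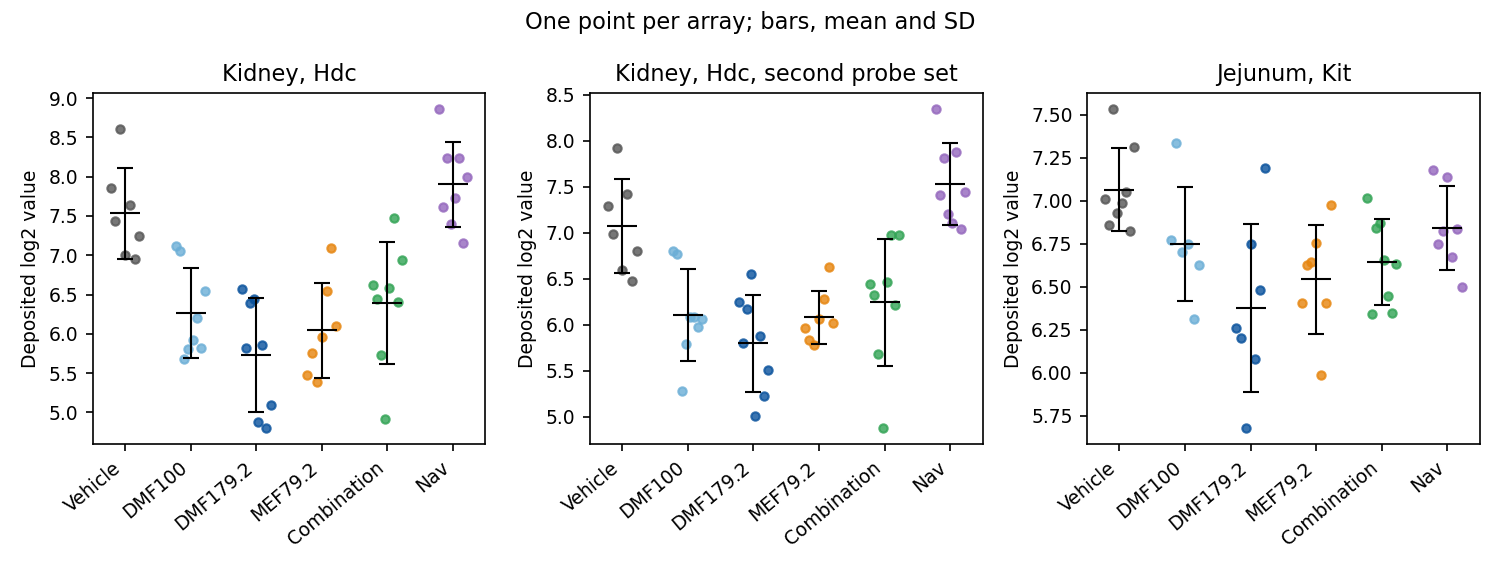
Log2 value in each array (points) by group, with the group mean and SD as bars, for both Hdc probe sets in kidney and for Kit in jejunum (each panel has its own axis). All DMF179.2 points of the first Hdc probe set lie below the lowest vehicle point at 6.95, the Nav points lie between 7.16 and 8.86, and 6 of 7 DMF179.2 points of Kit lie below the lowest vehicle point at 6.83.

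Kit fell in jejunum in DMF179.2, and the other groups lay below vehicle without passing the test. Vehicle values ran from 6.83 through a median of 6.998 to 7.53 (n = 8), DMF179.2 values from 5.68 through 6.26 to 7.19 (n = 7), MEF79.2 values from 5.99 through 6.63 to 6.98 (n = 7), and combination values from 6.34 through 6.64 to 7.02 (n = 8). Below the lowest vehicle array lay 6 of 7 DMF179.2, 6 of 7 MEF79.2, 5 of 8 combination, 5 of 6 DMF100 and 4 of 7 Nav arrays. Kit was lower by 0.69 ± 0.16 in DMF179.2 (1.61-fold, adjusted p = 0.00188), a call that held with any 1 array left out. The differences were -0.52 ± 0.16 in MEF79.2, -0.42 ± 0.16 in the combination, -0.31 ± 0.17 in DMF100 and -0.22 ± 0.16 in Nav (adjusted p = 0.181, 0.110, 0.545 and 0.390). Kit was the 1 gene of the set tested in jejunum, and 27.4% of all genes were called there in DMF179.2, 0.111% in MEF79.2, 3.84% in the combination, 0.996% in DMF100 and 7.87% in Nav. With the mouse as a block over the 6 tissues where Kit was tested, Kit was also called in MEF79.2 (adjusted p = 0.000137) and the combination (0.000539). That fit pools the spread of Kit over these tissues, and the standard error of its differences from vehicle was larger in jejunum, at 0.16 in both groups, than in the other 5, so these 2 calls rest on a spread smaller than that of jejunum alone.

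Some genes of other gut wall cells were also called in DMF179.2, where 27.4% of all genes were. Fcer1a, Ms4a2 and Mcpt4 were at the lowest value of 2.13 in all 43 jejunum arrays. Etv1, a factor of the interstitial cells of Cajal, fell by 0.60 ± 0.18 in DMF179.2 (adjusted p = 0.0112), and the array means of the 2 tested genes of these cells ran from 8.1 to 8.8 in vehicle and from 7.3 to 8.2 in DMF179.2, with r = 0.62 to Kit. Of these 2 genes Etv1 alone was called. Of 5 tested smooth muscle genes Acta2 fell by 0.32 (adjusted p = 0.0114), with list means of 10.7 to 11.5 in vehicle and 10.1 to 11.1 in DMF179.2 (r = 0.36). Of 4 tested fibroblast genes Dcn and Col3a1 fell by 0.89 and 0.30 (adjusted p = 0.0227 and 0.0277), with list means of 8.5 to 9.1 and 7.9 to 8.8 (r = 0.59). The hybridisation controls were lower than vehicle in all 5 groups in jejunum, by 0.06 to 0.17. The part of these changes in the Kit difference was not tested.

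Mcpt1 and Mcpt2, the mucosal chymases, did not pass the filter in jejunum, where 3 and 1 of 43 arrays lay above the tissue's 50th percentile. Vehicle values ran from 2.39 through 3.23 to 4.14 for Mcpt1 and from 2.15 through 2.15 to 2.64 for Mcpt2. In the 4 fumarate groups Mcpt1 stayed between 2.13 and 4.84 and Mcpt2 between 2.13 and 3.62. Nav arrays 41, 43 and 44 stood apart, with Mcpt1 at 6.98, 6.09 and 7.60 and Mcpt2 at 4.87, 4.83 and 6.63, and Nav array 45 had 4.06 and 3.66. The other 3 Nav arrays had Mcpt1 between 2.75 and 3.26 and Mcpt2 at 2.15. In a fit without the filter, Mcpt2 differed from vehicle in Nav by 1.51 ± 0.39 (adjusted p = 0.0289) and Mcpt1 by 1.59 ± 0.51 (adjusted p = 0.0677).

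No gene of the set was called in spleen, brain or mesenteric node. In spleen Hdc ran from 6.61 through 6.83 to 7.45 in vehicle and differed by -0.43 in DMF100, -0.02 in DMF179.2, -0.38 in MEF79.2, -0.52 in the combination and 0.39 in Nav. Kit ran from 7.56 through 7.73 to 7.91 and differed by -0.08, 0.01, 0.10, 0.09 and -0.18. Of 2 tested genes none was called, against shares of all genes of 0.834%, 24.4%, 0%, 0.0284% and 13.4%. In the same DMF179.2 spleens, erythroid and progenitor genes rose, Klf1 by 2.28 ± 0.66 and Gata1, a factor of erythroid cells, megakaryocytes and mast cells, by 1.67 ± 0.50 (adjusted p = 0.0120 and 0.0155), while the 95% interval of Kit, a receptor of blood progenitors, ran from -0.15 to 0.18. Of the 10 tested IgE receptor signalling genes, Fyn, Syk, Inpp5d and Grb2 fell in DMF179.2, by 0.24, 0.53, 0.23 and 0.09. Hpgds, prostaglandin D synthase of mast cells and other blood cells, and Srgn, the granule proteoglycan core, fell by 0.40 and 0.14 in DMF179.2. Syk, Inpp5d, Hpgds and Srgn were also called lower in Nav, by 0.40, 0.18, 0.53 and 0.13.

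In brain Hdc ran from 5.38 through 6.12 to 6.33 in vehicle and differed by 0.02, 0.26, 0.18, -0.17 and 0.23 in DMF100, in DMF179.2, in MEF79.2, in the combination and in Nav. Kit ran from 8.43 through 8.51 to 8.61 and differed by -0.12, -0.11, -0.03, -0.01 and 0.08. Neither was called, against shares of all genes of 0.4%, 1.09%, 0.362%, 0.297% and 3.83%. Fcer1a, Ms4a2, Cpa3, Mcpt1, Mcpt2 and Mcpt4 were at the lowest value of 2.08 in all 46 brain arrays.

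The protease genes did not pass the filter in mesenteric node. Cpa3 lay between 2.68 and 3.78, Cma1 between 2.14 and 3.05, and Mcpt4 at the lowest value in 41 of 44 arrays. Tpsb2 lay between 4.30 and 5.31, with 2 of 44 arrays above the tissue's 50th percentile. Kit, from 7.08 through 7.28 to 7.68 in vehicle, was tested alone and differed by -0.01, 0.02, -0.09, 0.07 and -0.10, against 1.85%, 7.88%, 4.75%, 12.7% and 50.6% of all genes called. The same Kit value of 7.27 occurred in 15 of the 44 arrays. Among the 5 tested other genes of these cells, Gata2 rose in DMF100, DMF179.2 and Nav by 0.41 ± 0.11, 0.42 ± 0.11 and 0.61 ± 0.12 (adjusted p = 0.0438, 0.0173 and 4.4e-05). Ltc4s rose in DMF179.2, the combination and Nav by 0.93 ± 0.16, 0.83 ± 0.17 and 0.75 ± 0.16 (adjusted p = 0.000352, 0.00277 and 0.000214). Hnmt rose by 0.76 ± 0.23 in DMF179.2 (adjusted p = 0.0384). Of the 11 tested IgE receptor signalling genes 3 fell in DMF179.2, namely Inpp5d by 0.28, Fyn by 0.20 and Lat2 by 0.33, and Fyn also fell in the combination and in Nav by 0.26 and 0.71. Of the 4 tested macrophage genes Cd68 rose by 0.32 in DMF179.2, 0.41 in the combination and 0.50 in Nav, and of the 2 tested platelet genes Pf4 rose by 0.81 in DMF179.2 and in the combination. Kitl, the ligand of Kit, rose by 0.32 in DMF179.2 and fell by 0.47 in Nav (adjusted p = 0.0417 and 0.000278), and Tslp, an epithelial cytokine, rose by 0.59 in the combination (adjusted p = 0.0109). The part of macrophages and platelets in the Ltc4s and Gata2 values was not tested.

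The fixed lists beside the 10 genes gave no calls where the receptor and protease genes moved most. In inguinal node, 10 of 11 measured IgE receptor signalling genes, 4 of 16 Other mast cell and basophil genes, 9 of 13 Mast cell growth and recruitment genes and 3 of 8 Histamine handling genes were tested, and none was called in any group against vehicle or between MEF79.2 and DMF100. Their medians in DMF179.2 were -0.09, 0.10, 0.08 and -0.01, against 0.03 over all genes tested. Kitl in inguinal node was 0.28 ± 0.11 higher than vehicle in DMF179.2 (adjusted p = 0.251) and 0.36 ± 0.11 lower in MEF79.2 than in DMF100 (adjusted p = 0.0983). In blood, all 11 measured IgE receptor signalling genes were tested and none was called, with a median of -0.01 in DMF100 and 0.04 in DMF179.2.

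The response of Hdc differed between the 5 tissues where it was tested in DMF179.2 (F = 10.8, adjusted p = 1.35e-05, where 17.3% of 8010 genes were called) and in MEF79.2 (F = 5.74, adjusted p = 0.0130, 5.44% called). For DMF100 and the combination the adjusted p was 0.0966 and 0.221. With the mouse as a block, DMF100 reached 0.0307. In DMF179.2 the Hdc difference was -1.80 in kidney and lay between -0.39 and 0.26 in the other 4 tissues. The response of Kit differed between 6 tissues in DMF179.2 (F = 9.45, adjusted p = 1.54e-06, 35.9% of 8244 genes called), MEF79.2 (F = 5.84, adjusted p = 0.00465, 7.76% called) and the combination (F = 4.33, adjusted p = 0.00875, 22.9% called). The differences in jejunum were -0.69, -0.52 and -0.42, and in the other 5 tissues the Kit differences of these 3 groups lay between -0.11 and 0.10. The F test pools the spread of Kit over the 6 tissues, and its standard error was largest in jejunum, at 0.16 in each of these groups. Within jejunum alone, Kit was not called in MEF79.2 or the combination (adjusted p = 0.181 and 0.110).

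One mouse of the Nav group, number 40, carried high Hdc in several tissues. Its Hdc value was 11.20 in blood, where the other 37 arrays lay between 7.34 and 8.84, and 9.49 in spleen, where the other 46 did not exceed 7.71. In kidney it was 8.86 and in inguinal node 6.52, the highest value of each tissue. Its neutrophil gene means were 10.9 in blood, 12.2 in spleen, 9.83 in kidney and 11.1 in inguinal node, against medians over all arrays of 8.68, 9.08, 5.37 and 6.15. The highest neutrophil means among the other arrays were 11.7, 11.3, 6.39 and 9.21. In blood, mouse 40 was thus exceeded for the neutrophil genes but not for Hdc. The blood array of mouse 40 also had the lowest mean correlation with the other blood arrays, 0.982 against a median of 0.993. Over all arrays, groups centred, Hdc and the neutrophil means had r = 0.27 in blood, 0.65 in spleen, 0.27 in kidney and 0.39 in inguinal node, and 0.10, 0.34, 0.11 and 0.19 without this mouse. Blood fitted without this array kept every call of the set.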

How the data were processed

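RNA of 308 tissue samples was hybridised to Affymetrix mouse HT MG-430 PM arrays, and groups were read from sample titles. The authors deposited normalized log2 values for 45141 probe sets. Per the submitters' processing notes, RMA, GCRMA, R 2.11.1 and limma 3.4.5 were used, with roles not given in the sources used here. The log base is not stated, and the range fits log2. Each tissue has its own lowest value, shared by its arrays, so each was normalized apart and tested apart.

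Probe sets with 1 gene symbol (28898) were reduced to 17097 genes by the highest mean. Within each tissue limma 3.58.1 (R 4.3.3) fitted all 6 groups together, keeping genes above percentile 50 in at least 5 arrays, with Benjamini-Hochberg adjustment over all genes tested and calls at 0.05. Every adjusted p without another test named comes from this fit. Differences between tissues were tested as tissue by treatment interactions. Named genes outside the set are the 5 nearest in group-centred correlation, or members of fixed lists that passed the test or mark the cells described. The members and lists were chosen with earlier results of these data known. Mouse numbers recur across tissues and pair them: the correlation within a mouse, estimated from every 20th of 13822 genes, was 0.0987. Arrays are separate mice, so p-values measure the spread between mice. Scripts were tested on simulated data. Python 3.11.15 with scipy 1.17.1 gave permutation tests.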

Additional observations from a re-analysis of the deposited data

Results flagged for a closer look

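The response of Hdc differed between tissues in DMF179.2 (F = 10.7801, adjusted p = 1.35e-05) and in MEF79.2 (F = 5.73799, adjusted p = 0.0130), by the interaction of tissue and treatment over 5 tissues. The response of Kit differed over 6 tissues in DMF179.2 (F = 9.45363, adjusted p = 1.54e-06), in MEF79.2 (F = 5.83541, adjusted p = 0.00465) and in the combination (F = 4.33457, adjusted p = 0.00875). These F tests pool the spread of a gene over its tissues, and the standard error of Kit was largest in jejunum. Within jejunum alone, Kit was called in DMF179.2 and not in MEF79.2 or the combination. Dixon's criterion was applied only to gene and tissue pairs with a call in some comparison. In none of the 48 groups of 4 to 10 arrays checked did 1 array stand apart. Pairs without a call were not checked, among them Hdc in spleen, where Nav array 40 had 9.49.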

How the results depend on the processing

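Each choice was changed alone. The fall of Hdc in kidney in the 4 fumarate groups and of Kit in jejunum in DMF179.2 passed the threshold under every alternative run, as did Cpa3 and Cma1 in inguinal node between MEF79.2 and DMF100. Without the filter on low values the number of called pairs was 1 in DMF100 (4 as reported) and 3 in Nav (0 as reported). With the filter at percentile 70 it was 3 in DMF179.2 (5 as reported) and 1 in the combination (2 as reported). With array weights it was 8 in DMF179.2, 1 in the combination and 1 in Nav. With the hybridisation control as a covariate it was 1 in the combination, and with each pair of groups fitted alone 2 in DMF100 and 2 in DMF179.2. Fitted alone, Fcer1a in blood had an adjusted p of 0.0986 in DMF100 and 0.0943 in DMF179.2. A pair fitted alone has fewer degrees of freedom and takes its spread from those 2 groups only. The cause of these changes was not tested. The difference of Hdc in brain between DMF179.2 and the combination was 0.43 (adjusted p = 0.287) and -0.011 with the other probe set.

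With the mouse number as a replicate block over all tissues, 10 pairs were called in DMF100, 10 in DMF179.2, 8 in MEF79.2 (1 as reported), 10 in the combination and 2 in Nav. By construction that fit pools the spread of a gene over tissues where it lies at the lowest value. Blocked over the tissues where the gene was tested, an alternative chosen after seeing the data, Fcer1a in inguinal node had an adjusted p of 0.122 in DMF100, 0.00584 in DMF179.2 and 0.00891 in the combination, and Fcer1a in blood reached 0.0422 in the combination.

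In blood, Ms4a2 in DMF179.2 differed by 0.53 (adjusted p = 0.0846) with the mean of its probe sets, and without the filter Fcer1a and Ms4a2 in DMF100 had adjusted p-values of 0.0582 and 0.0992.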

Other observations

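In jejunum, where 27.4% of all genes were called in DMF179.2, 0 of 4 tested histamine handling genes, 0 of 5 other mast cell and basophil genes and 0 of 8 genes of mast cell growth and recruitment were called in that group. Of 9 tested IgE receptor signalling genes 1 was called, the adaptor Gab2, which fell by 0.36 in DMF100 and 0.20 in DMF179.2 (adjusted p = 0.0121 and 0.0490). The eosinophil receptor Siglecf, the 1 tested gene of its list, rose by 0.76 in DMF179.2 (adjusted p = 0.0349), and of 4 tested macrophage genes C1qa fell by 0.63 (adjusted p = 0.000488).

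A fit without the filter on low values called pairs that were not tested otherwise. Tpsb2 in mesenteric node was 0.32 higher than vehicle in the combination (adjusted p = 0.0348). Hdc in mesenteric node was 0.36 higher in Nav (adjusted p = 0.00053), and Ms4a2 in spleen 0.07 higher in Nav (adjusted p = 0.0211), at values close to the lowest of the tissue.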
